A study of Mus musculus with 5 samples.

Results

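Ccl5-positive memory CD8 T cells were examined in blood from mice on a heart failure regimen and from control mice. Members were selected on measured UMI counts of named genes. A cell was taken as a member if it carried at least 1 UMI (a unique molecular identifier, 1 counted transcript) of Cd8b1 and at least 1 of the T-cell genes Cd3e, Cd3d or Trac. It had to lack UMIs of Cd4, Cd79a and Lyz2, to hold at least 2 UMIs of the chemokine gene Ccl5, and to show at least 2 of the 7 genes Klrk1, Klrc1, Klrc2, Il2rb, Nkg7, Xcl1 and Samd3. Of 66693 deposited barcodes, 62028 had at least 200 genes and under 10% mitochondrial UMIs, 4633 of these were CD8 cells by the same gate without Ccl5 and the 7 genes, and 941 were members.

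The libraries were 10x 3' single-cell RNA libraries of peripheral blood mononuclear cells from C57BL/6N mice, taken by density gradient with red cell lysis, frozen and thawed. The first 2 libraries came from mice on chow. A second pair came from mice given a high-fat diet and L-NAME, which blocks nitric oxide synthases, for 15 weeks (HFD + L-NAME, here called the regimen). The combination is used in mice to model heart failure in which the ejection fraction is preserved. The fifth library came from mice on the regimen that also received the nitrated fatty acid nitro-oleic acid (NO2-OA) over the last 4 weeks. The labels do not state whether each library is a separate animal or a pool, so the p-values reflect how far libraries differ, which may be technical. No genetic alteration is named in any group.

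Memory CD8 T cells are cells that have left the naive state and can make cytokines and granule enzymes soon after stimulation. Some arise after infection, and in mice kept without known infection many are virtual memory cells, which acquire a memory phenotype in response to self ligands and to the cytokines IL-15 and IL-4. Such cells carry high Il2rb and Eomes, the lymph node receptor Ccr7, and little CD49d, the protein of Itga4, whereas effector memory cells carry Klrg1, Cx3cr1 and granzymes. CCL5 is a chemokine that memory CD8 cells and NK cells store or make early.

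Libraries held 8488 to 17997 barcodes and 71216133 to 122022000 UMIs. Members numbered 262 in chow 1, 169 in chow 2, 164 in HFD + L-NAME 1, 39 in HFD + L-NAME 2 and 307 in the NO2-OA library. Summed over members, this gave 539421 UMIs in HFD + L-NAME 2 and 1834751 to 3067861 in the other libraries, so HFD + L-NAME 2 is the shallowest. Pairs of libraries shared 28 to 77 cell barcodes, at most 0.613% of the smaller library, and no barcode was a member in both. Chow 1 stood apart in several technical measures. Its members had a median mitochondrial share of 4.93%, against 3.68 to 4.13% elsewhere, and 77.1% of them carried a UMI of the platelet genes Pf4 or Ppbp. That share was 46.7% in chow 2, 51.2% and 33.3% under the regimen and 11.1% with NO2-OA, and it was 77.0% in B cells of chow 1 and 8.38% in B cells of the NO2-OA library. Summed red-cell markers ran the other way in members, at 121 and 71.7 CPM (UMI counts scaled to 1000000 UMIs of the summed cells) in chow, 4140 and 332 under the regimen and 15258 with NO2-OA. Predicted doublets made up 9.92% of members in chow 1 and 13.4% in the NO2-OA library, against 1.18 to 2.56% in the others.

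The genes that chose the members are given as a description only. Ccl5 stood at 1741 CPM in chow 1, 3387 in chow 2, 3865 in HFD + L-NAME 1, 3055 in HFD + L-NAME 2 and 4613 in the NO2-OA library, so chow 1 was lowest. Nkg7, a cytotoxic granule membrane protein, ran from 236 CPM in chow 1 to 547 in HFD + L-NAME 2, Il2rb, the IL-15 and IL-2 receptor chain, from 346 to 531, and Klrk1, the activating receptor NKG2D, from 106 to 149. The median member held 14 Ccl5 UMIs in chow 1, 28 in chow 2, 29 and 39 under the regimen and 36 with NO2-OA. Just inside the cut were 49 members with exactly 2 Ccl5 UMIs, and just outside it were 113 CD8 cells with 1 Ccl5 UMI and 2 or more of the 7 genes. Another 1141 CD8 cells had 2 or more of those genes and no Ccl5. At the second cut, 218 members carried exactly 2 of the 7 genes, while 68 cells with enough Ccl5 carried 1 and 2 cells carried none. As a measure of free RNA, 0.202 to 0.552% of B cells held 2 or more Ccl5 UMIs.

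The label was checked with genes that the rule did not use, apart from Cd79a in the summed B-cell markers. Cd44, the classical surface marker of memory T cells, had a UMI in 79.2 to 88.9% of members and in 8.36 to 22.1% of naive-type cells, with B cells at 37.1 to 51.1%. After each cell was thinned to 2000 UMIs, which levels the depth, Cd44 was seen in 37.9 to 48.9% of members and 1.69 to 10.3% of naive-type cells. NK-type cells were at 71.0 to 89.3% before thinning and 42.1 to 64.4% after, so Cd44 did not mark members off from them. The defining NK receptor Ncr1 was seen in at most 0.61% of thinned members. All 12 NK markers together reached 146 to 363 CPM in members, against 9412 to 14264 CPM in NK-type cells. B-cell markers summed to 113 to 199 CPM in members, against 19519 to 26120 in B cells. Summed NK and B-cell markers in members thus lay far below those cells' own levels, but both contrasts were partly fixed by the gates. Members had to lack Cd79a, which B cells had to carry. The NK list holds Klrb1c, Klra8 and Klre1, which helped to choose the NK-type cells.

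Members made up 16.1% of CD8 cells in chow 1 (95% exact binomial interval 14.4 to 18.0%) and 23.1% in chow 2 (20.1 to 26.3%). Their share was 21.9% in HFD + L-NAME 1 (19.0 to 25.1%), 24.5% in HFD + L-NAME 2 (18.1 to 32.0%) and 22.4% in the NO2-OA library (20.2 to 24.7%). Only chow 1 lay apart, and the regimen libraries overlapped chow 2. The mean was 19.6% ± 4.94 (SD, n = 2) in chow and 23.2% ± 1.84 (SD, n = 2) under the regimen, a log2 ratio of 0.26. A 2-sided exact permutation test gave p = 0.667, with 0.333 the smallest p that 2 libraries against 2 allow. Within replicate number 1 the log2 ratio was 0.44 and within number 2 it was 0.09. Counted against all filtered barcodes instead, members were 1.55% on average in chow and 0.942% under the regimen, a log2 ratio of −0.89, so the direction depended on the denominator. The binomial intervals cover counting error only.

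**Figure D1:**
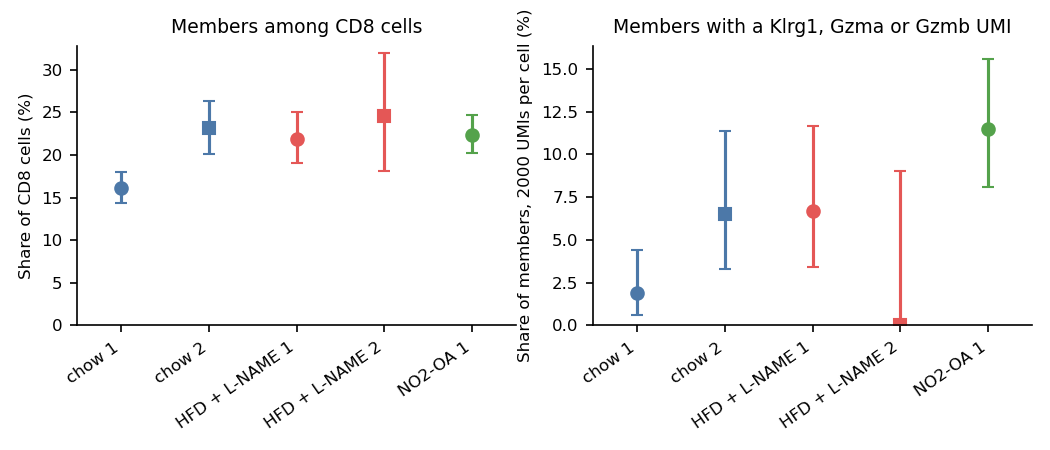
Left, members as a percentage of CD8 cells in each of the 5 libraries; right, members with a UMI of Klrg1, Gzma or Gzmb at 2000 UMIs per cell, with exact binomial 95% intervals as bars. On the left chow 1 lies lowest at 16.1% and the other libraries lie between 21.9 and 24.5%; on the right the shares are 1.91 and 6.51% in chow, 6.71 and 0% under the regimen and 11.5% with NO2-OA.

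The first comparison asked what else marks these cells against naive-type CD8 cells of the same libraries. Naive-type cells had no Ccl5 and none of the 7 genes, and there were 886 of them, from 11 in HFD + L-NAME 2 to 321 in chow 1. Members had more UMIs per cell, with medians of 9082 to 14552 against 5748 to 7245. Counts were summed per library and tested with edgeR's quasi-likelihood test, with the library as a block, over 10444 genes without the 15 rule genes. At a false discovery rate (FDR) of 0.05, 1096 genes (10.5%) were higher and 903 (8.65%) lower in members. With cells matched on depth, 994 genes were called in all in place of 1999, and with platelet-positive cells left out, 1041. Both populations were gated on Ccl5 and receptor genes, so these are differences between gated populations.

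Transcription factors of CD8 fate moved in both directions. Of the 33 tested, 13 were higher and 8 lower, with a median log2 fold change of 0.01 against −0.00 over all genes tested. Runx2, a runt-domain factor linked to long-term CD8 memory, had the smallest p of all genes. It stood in members at 222 CPM in chow 1, 138 in chow 2, 370 and 100 under the regimen and 430 with NO2-OA. In naive-type cells it stood at 10.9, 5.56, 27.5, 25.2 and 21.7 CPM in the same order, so no libraries overlapped. The log2 fold change was 4.15 ± 0.17 (SE, adjusted p = 8.0e-25). Tbx21, which encodes T-bet, was at 60.3 to 117 CPM in members and 0 to 3.47 in naive-type cells (5.14 ± 0.28, adjusted p = 1.3e-19). Eomes, its partner in memory CD8 cells and NK cells, was at 47.8 to 83.6 against 3.75 to 12.6 CPM (3.50 ± 0.25). Zeb2, a factor of terminal effector cells, was higher by 2.94, and Ikzf2, Bhlhe40, Gata3 and Rora by 1.07 to 2.13. Ikzf2 lost the call with depth-matched cells, with a mitochondrial share under 5% and without chow 1, and Rora without HFD + L-NAME 1 and without predicted doublets. Lef1, a factor of naive and early memory T cells, fell by 1.23 on the log2 scale (SE 0.10), from 958 to 1585 CPM in naive-type cells to 386 to 675 CPM in members. Its relative Tcf7 fell by 0.45 and Bach2, a keeper of quiescence, by 0.79. Tcf7 thus stayed abundant in members, at 334 to 413 CPM.

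The 3 genes with the smallest p, Runx2, the surface gene Ly6c2 and the kinase gene Yes1, are shown with the 250 bases before their annotated starts, because each holds the runt-domain core TGTGGTT on 1 strand or the other. The sequences come from RefSeq (GRCm38.p6, not the mm39 build of the files), 5′ to 3′ along the gene, with the match in capitals as AACCACA. Runx2 lies at chr17:44814628-44814877 on the minus strand with the match starting 81 bases before the start, Ly6c2 at chr15:75111938-75112187 on the minus strand (214 bases before) and Yes1 at chr5:32610921-32611170 on the plus strand (249 bases before).
Runx2: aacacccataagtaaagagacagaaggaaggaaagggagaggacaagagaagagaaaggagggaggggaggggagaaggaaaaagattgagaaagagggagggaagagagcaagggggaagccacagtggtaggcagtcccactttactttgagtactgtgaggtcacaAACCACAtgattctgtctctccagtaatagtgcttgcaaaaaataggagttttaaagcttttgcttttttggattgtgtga
Ly6c2: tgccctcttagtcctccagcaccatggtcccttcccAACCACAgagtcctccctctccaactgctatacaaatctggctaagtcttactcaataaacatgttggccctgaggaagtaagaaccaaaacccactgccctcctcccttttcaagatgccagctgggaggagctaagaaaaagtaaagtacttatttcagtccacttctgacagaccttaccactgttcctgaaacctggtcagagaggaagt
Yes1: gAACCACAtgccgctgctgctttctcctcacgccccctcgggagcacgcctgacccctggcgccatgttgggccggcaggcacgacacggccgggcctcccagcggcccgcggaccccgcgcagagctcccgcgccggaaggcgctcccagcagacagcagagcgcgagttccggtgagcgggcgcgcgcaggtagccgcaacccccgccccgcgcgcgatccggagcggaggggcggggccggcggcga

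Of the 12 genes named as higher, 9 had a promoter in the table and 4 of these held the 7 letters. The share was 4.4% of all 27025 promoters of that length, 3.29% of the 8031 promoters of genes tested, 4.58% of the 829 of genes higher in members and 4.32% of the 671 of genes lower. The promoters of genes higher and lower in members thus held the letters about equally often. A match of letters is a description and not a binding site.

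Surface and memory genes followed. Of 25 memory and virtual-memory genes tested, 17 were higher and 2 lower in members, with a median log2 fold change of 2.21. Ly6c2, a GPI-anchored marker of memory CD8 cells whose near-identical neighbour Ly6c1 can share reads, stood at 306, 592, 401, 565 and 387 CPM in members in library order. It was at 0 to 42.6 CPM in naive-type cells (3.92 ± 0.15, adjusted p = 1.2e-23). Cd44, the hyaluronan receptor, was at 300 to 465 against 12.6 to 79.9 CPM (3.4 ± 0.21). Il18rap, the accessory chain of the IL-18 receptor, was at 87.1 to 170 against 0 to 11.1 CPM (4.54 ± 0.24). Ahnak, the calcium-binding gene S100a4 and Lgals1 were higher by 2.24, 5.22 and 3.61. S100a4 in members was lowest in chow 1, at 15.3 CPM against 65.9 to 119 elsewhere.

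The remaining genes named as higher were Yes1, a Src-family kinase (3.60), Lrrk1, a kinase (6.60), Gas7 and Rttn (2.11). Gas7 rested on 569 UMIs in members against 1 in naive-type cells, a ratio of 315 with a counting interval of 56.4 to 12480. Lrrk1 rested on 793 UMIs against 4, so the size of both differences is loosely set.

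The integrin pattern separated the chains. Itgb1, the beta chain shared by many integrins, was higher in members by 2.21, at 196 to 301 against 0 to 59.6 CPM. Itga4, which encodes CD49d, was lower by 0.75 on the log2 scale (SE 0.15, adjusted p = 0.0015). It stood at 200, 239, 229, 386 and 310 CPM in members and at 540, 522, 320, 528 and 352 in naive-type cells. Each library was lower in members, and HFD + L-NAME 2 had the highest member level. With cells of the 2 populations matched on UMI depth, the log2 difference of Itga4 was 0.053, so the direction did not hold. Itgae, the CD103 chain that binds E-cadherin, was at 4.56 to 8.70 CPM in members and 37.7 to 67.7 in naive-type cells, and fell by 2.93. Of 17 integrin and adhesion genes tested, 6 were higher and 6 lower, with a median of 0.21.

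Cytotoxic genes were higher in members, but several rested on few UMIs. Of 22 tested, 16 were higher and none lower, with a median of 1.72. Gzma, a granule protease, had 668 UMIs in members and 0 in naive-type cells, at least 123-fold higher with a floor of 3 counts over the group, although DESeq2 did not call it (adjusted p = 0.0612, edgeR at most 1.1e-09 when a library was left out). Its libraries did not agree, at 20.2, 81.3, 60.0, 0 and 108 CPM in members. Gzmk had 185 UMIs against 0 (at least 34.2-fold), with 0.348 CPM in chow 1 and 13.9 to 29.7 elsewhere. Gzmm was steadier, at 30.3 to 46.6 CPM in members against 0 to 5.00 (3.87 ± 0.32). Ifng, the gene for interferon gamma, was at 30.1 to 75.2 CPM against 0 to 1.85 (6.03 ± 0.39), and Fasl, the death ligand, at 38.9 to 84.1 against 0 to 4.46 (4.43 ± 0.29). Prf1, which encodes perforin, rose less, by 1.06, at 26.0 to 49.6 against 11.1 to 62.9 CPM. Ccl4, a chemokine, was at 40.6 to 105 against 0 to 19.5 CPM and missed the threshold (4.03 ± 0.91, adjusted p = 0.052).

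Of 21 killer lectin-like receptor genes outside the rule, 13 had counts enough to be tested and were higher in members. Those without a UMI in naive-type cells passed the count filter only through members, so the number is a description. Klre1 had 549 UMIs in members and 2 in naive-type cells, a ratio of 152 (counting interval 41.9 to 1259). Klra7, of the Ly49 family, had 258 UMIs against 0 and was at 14.8 to 27.1 CPM in members, at least 47.7-fold higher. Of the 13, 9 had no UMI in naive-type cells, and with those genes set at their bound the median was 4.01 in place of 6.64. Ly49 genes are near-identical to one another, so counts among them are uncertain. Klrd1, the CD94 partner of the NKG2 receptors, differed least (0.37), at 194 to 268 CPM in members and 160 to 277 in naive-type cells. It lost the call without chow 2 and without the NO2-OA library. It also lost it without platelet-positive cells, with a mitochondrial share under 5% and without the library as a block.

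Genes of lymph node homing and quiescence were lower but present. Of 24 naive and quiescence genes tested, 15 were lower and 1, Id3, higher, with a median of −0.54. Ccr7, the chemokine receptor for lymph node entry, fell by 0.85 and Il7r, the IL-7 receptor, by 0.54. With cells matched on depth Il7r and Id3 lost the call, and Id3 kept it in 10 of 15 alternatives. Igfbp4, an IGF-binding protein of naive T cells, was at 1.85 to 15.6 CPM against 64.5 to 137 (−3.17, SE 0.19). Igf1r, the IGF1 receptor, fell by 2.60, Ifngr2, the second interferon gamma receptor chain, by 2.99, Tgfbr3 by 2.71 and Ccr9, the gut homing receptor, by 2.32. The other genes named as lower, Patj, Cpm, Slc28a2b, Mtss1 and Inpp4b, had log2 fold changes between −2.79 and −1.46. In the other direction Cxcr3, an inflammatory homing receptor, had 230 UMIs against 1. Of 16 chemokine and homing receptor genes tested, 9 were higher and 3 lower.

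Interferon-stimulated genes ran lower in members. Of 48 tested, 16 were lower and 3 higher, with a median of −0.34. Those lower included the GTPase genes Igtp (−1.30), Irgm2 (−1.82), Gbp6 (−1.71) and Iigp1 (−2.47). Libraries overlapped for Iigp1, at 3.27 to 9.13 CPM in members and 0 to 75.2 in naive-type cells. Isg15 was not called (−0.45). Mx1 was higher on 51 UMIs against 6.

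Proliferation genes were at low levels. Of 21 cell-cycle genes tested, 7 were higher and none lower. Mki67, a marker of dividing cells, stood at 2.09, 14.8, 7.09, 1.85 and 15.0 CPM in members and 0 to 2.79 in naive-type cells. Pdcd1, which encodes PD-1, had 43 UMIs over all members and none in naive-type cells, at least 7.95-fold higher. T-cell identity genes differed little, with Cd8a at 0.16 (adjusted p = 0.40) and Cd3g at −0.17 (adjusted p = 0.30). The survival gene Bcl2 was at 858 to 1348 CPM in members and was not called (0.30, adjusted p = 0.16).

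T-cell receptor signalling genes leaned upward, with 12 of 24 higher and 3 lower and a median of 0.23. Sh2d2a, an adaptor of activated T cells, was higher by 1.92, Cd6 by 1.52, Cd5, which rises with the strength of self recognition, by 1.02, and the kinase genes Zap70 and Fyn by 0.94 and 0.86. Among 30 genes of cytokine receptors and their signalling, 8 were higher and 8 lower. Those higher included Il10ra (2.52), Il18r1 (1.52), Il15ra (1.5) and Il12rb2 (1.29), and those lower included Stat5b (−0.91) and Il21r (−0.78).

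Of 17 activation and checkpoint genes tested, 7 were higher and 2 lower, with the inhibitory receptor Tigit at 1.13 and Cd160, a receptor of cytotoxic cells, at 1.65. Metabolic and stress groups moved less. Of 15 glycolysis genes 4 were higher, Pfkp (0.72), Pgam1, Gapdh and Slc2a1 (0.54), and Hif1a was lower. Of 24 lipid and fatty-acid oxidation genes 7 were lower and 2 higher, and the lower ones included the cholesterol synthesis gene Sqle (−1.46). Slc2a1, Sqle and Tigit lost the call in DESeq2, and Slc2a1 and Pgam1 lost it without chow 1. Of 15 alternatives, Slc2a1 kept the call in 8 and Pgam1 in 9. Of 35 immediate-early and stress genes, 5 were higher, with the phosphatase gene Dusp2 at 1.31, and 8 lower, with the heat-shock gene Hspa1b at −1.24. Of 13 clock genes 3 were higher and 1 lower, and of 15 NRF2 targets and ferritin genes 3 were higher and 1 lower. Over all genes tested 10.5% were higher and 8.65% lower, so such small counts say little about these lists.

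NK markers moved with the cytotoxic and killer-receptor genes. All 10 tested were higher in members, 4 of them with no UMI in naive-type cells. Those 4 passed the count filter only through members, so the number is a description. With them set at their bound the median was 3.59 in place of 4.99. The list includes Gzma and Klre1, described above. The summed level of its 12 genes was 146 to 363 CPM in members, 12.6 to 42.7 in naive-type cells, 165 to 204 in B cells and 9412 to 14264 in NK-type cells, and their part in these results was not tested. Platelet markers differed between the gated populations too. Of 9 tested, 4 were lower in members and none higher, with a median of −0.65, and 4 of 10 B-cell markers were lower. With the cells that carried Pf4 or Ppbp left out, 1041 genes were still called.

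**Figure D2:**
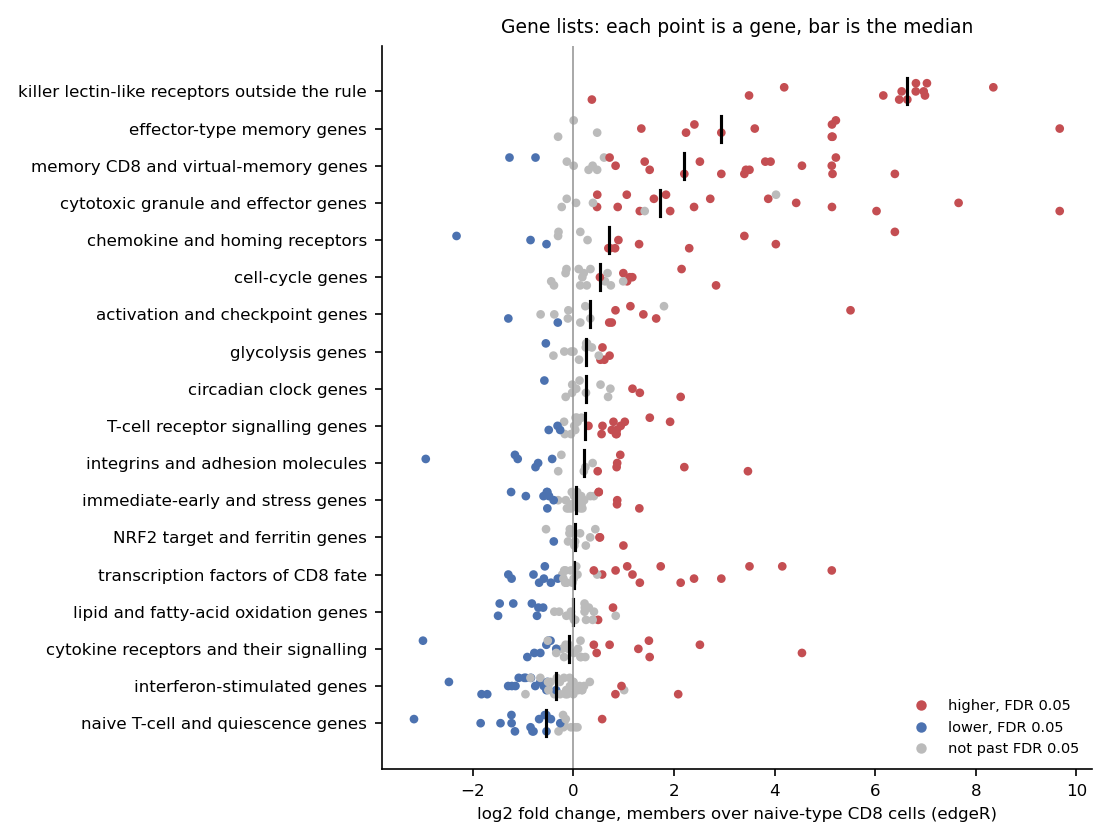
Log2 fold changes of members over naive-type CD8 cells for each tested gene of 18 lists, with the median of each list as a bar and calls at FDR 0.05 in colour. Killer lectin-like receptors, effector-type, memory and cytotoxic genes have medians of 6.64, 2.94, 2.21 and 1.72, while naive T-cell genes have −0.54. Of the 13 killer receptor genes, 9 had no UMI in naive-type cells, and with those at their bound the median is 4.01.

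The second comparison set members against the 361 NK-type cells, which also carry Ccl5 and the same receptors. NK-type cells had an Ncr1 UMI, a UMI of Klrb1c, Klra8, Klra4 or Klre1, and no T-cell, B-cell or monocyte gene of the gate. These genes and the rule genes were left out. Of 8278 genes tested, 1367 (16.5%) were higher and 1341 (16.2%) lower in members.

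T-cell genes were higher in members. This was partly fixed by the gates, since members had to carry Cd8b1 and a T-cell gene, which NK-type cells had to lack. Themis, a signalling protein of the T-cell receptor, stood at 806 to 1222 CPM in members and at 0 to 5.61 in NK-type cells (8.37 ± 0.23, adjusted p = 2.1e-18). Il7r stood at 557 to 774 against 22.4 to 36.0 CPM (4.70 ± 0.16). Bcl11b, the T-lineage factor, was higher by 4.97, Zeb1 by 2.31 and Tcf7 by 2.23. Ccr7 was at 66.2 to 194 against 0 to 15.7 CPM, and Dapl1, a gene of naive and early memory cells, had 516 UMIs against 0 (at least 36.9-fold). Cd8a and Cd6 rested on 1 and 2 UMIs in NK-type cells. The other genes named as higher were Fam169b, Fam241a, Gramd3, Sntb1, Gpr183 and Ms4a6b, at 2.74 to 7.08. Of 24 T-cell receptor signalling genes tested, 15 were higher and 2 lower, and of 22 naive and quiescence genes, 18 were higher and 2 lower.

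Of 22 cytotoxic genes, 12 were lower in members than in NK-type cells and 4 higher, with a median of −0.95 against 0.02 over all genes tested. Among all genes tested, 16.2% were lower and 16.5% higher. Prf1 stood at 26.0 to 49.6 CPM in members and 324 to 408 in NK-type cells (−3.00, SE 0.15). Gzma, at 0 to 108 CPM in members, stood at 3333 to 5500, and Gzmb at 3.13 to 42.4 against 290 to 553. Gzmm went the other way, at 30.3 to 46.6 against 0 to 22.6 CPM (2.03 ± 0.34), and Gzmk was higher by 2.55 on 185 UMIs against 8.

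Shared factors were intermediate. Eomes was lower in members than in NK-type cells by 1.93 and Tbx21 by 1.49, although both were higher than in naive-type cells. Il18rap was likewise lower by 2.21. The signalling adaptor genes Fcer1g and Tyrobp, which carry signals of NK receptors, were at 13 to 31.9 and 6.27 to 28.7 CPM in members against 978 to 1280 and 955 to 1553. Irf8, Itga2, Itgam, Klf12 and Cd244a had log2 fold changes of −5.80 to −4.58. The other genes named as lower, Klri2, Adamts14, Clnk, Cdk14, Eya1 and Dhrs3, lay between −6.68 and −5.48. Ly6c2 was higher in members than in NK-type cells, by 0.84 ± 0.16, and Itga4 lower by 1.38. All 7 NK markers tested were lower, which the gates partly fixed, since NK-type cells had to carry NK receptor genes. Interferon-stimulated genes were higher than in NK-type cells for 16 of 37 tested and lower for 3, with Ifi27l2a at 5.12. Of 17 chemokine and homing receptors, 8 were higher and 4 lower, against 16.5% and 16.2% of all genes tested. The higher ones included Cxcr6 (2.35) and S1pr1 (2.04), which directs exit into blood, and the lower ones Ccr2 (−2.94) and S1pr5 (−3.66).

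**Figure D3:**
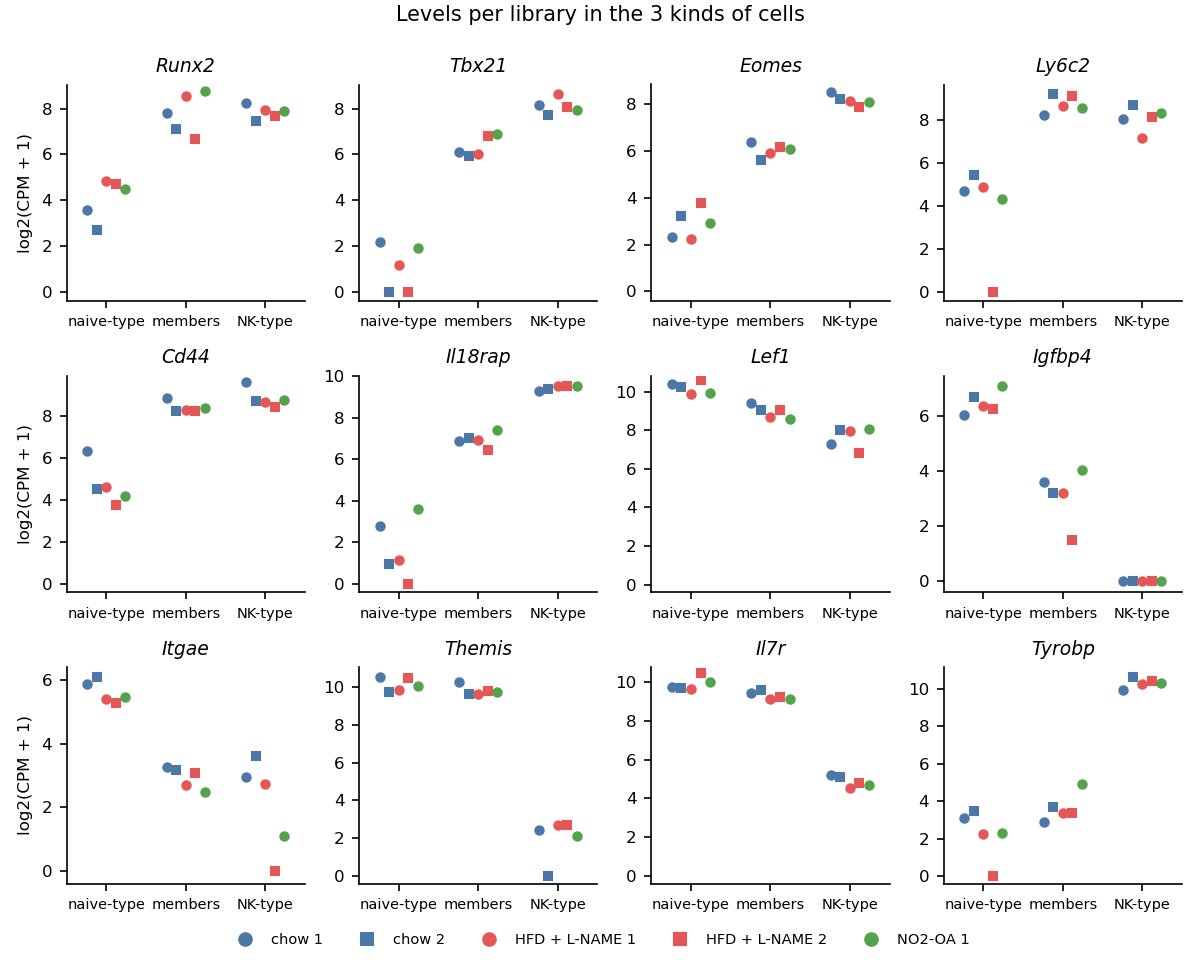
Levels as log2(CPM + 1) in naive-type cells, members and NK-type cells, 1 point for each of the 5 libraries, where the naive-type point of HFD + L-NAME 2 rests on 11 cells. Tbx21 and Eomes in members lie between the other populations, while Themis and Il7r in members lie with naive-type cells and Tyrobp far below NK-type cells.

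Detection of single genes was partial among members, which does not by itself show different kinds of cells. Ccr7 had a UMI in 56.5, 78.7, 44.5, 48.7 and 36.8% of members in library order. Thinned to 2000 UMIs, the Ccr7 shares were 18.3, 26.6, 15.2, 12.8 and 11.5%, against 21.9 to 38.3% in naive-type cells and 0 to 1.37% in NK-type cells. B cells, which express Ccr7 themselves, were at 32.1 to 34.6%. Chow 2 was the highest library among members.

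Members with a UMI of Gzmb or Gzma were few, while Gzmm was seen without Gzmb in 210 of the 941 members. Gzmb had a UMI in 2.67, 5.33, 12.2, 5.13 and 17.6% of members, against 0.0678 to 0.276% of B cells at lower depth. Gzma was seen in 2.29, 6.51, 7.32, 0 and 11.1%, where 0 of 39 members in HFD + L-NAME 2 allows a share of members with a UMI, not of members expressing the gene, of up to 7.69% (3 of 39). Klrg1, the receptor of terminal effector cells, was seen in 0.382 to 2.56% of members, against 16.1 to 38.2% of NK-type cells. Thinned shares of Klrg1 were 0 to 1.22%.

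Joint detection over all 941 members is given as a description, since deep cells show more of every gene. Gzmb was seen in 46.0% of Gzma-positive members and 7.18% of the others. Tbx21 was seen in 39.7% of Eomes-positive members and 39.9% of the rest.

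Members with a UMI of Klrg1, Cx3cr1, Gzma or Gzmb were called effector-type. They made up 14.1 and 23.7% of members in chow, 28.0 and 28.2% under the regimen and 32.9% with NO2-OA, so regimen and chow libraries did not overlap. The log2 ratio of regimen over chow was 0.62, and a 2-sided exact permutation test gave p = 0.333, the smallest possible. The direction did not hold at equal depth, where the shares were 4.58 and 9.47% in chow and 9.15 and 2.56% under the regimen (log2 ratio −0.44), with NO2-OA at 15.1%. Cx3cr1 had a thinned share of 2.56 to 5.57% in members, 2.01 to 2.46% in B cells and 1.42 to 4.07% in naive-type cells outside the 11-cell library. Without Cx3cr1 the number of effector-type members went from 37 to 10 in chow 1, from 40 to 16 in chow 2, from 46 to 28 and from 11 to 2 under the regimen and from 101 to 74 with NO2-OA. The shares were then 3.82 and 9.47% in chow, 17.1 and 5.13% under the regimen and 24.1% with NO2-OA, and at equal depth 1.91, 6.51, 6.71, 0 and 11.5%.

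Within the same libraries, effector-type members were compared with the other members, leaving out the 4 genes of the split and HFD + L-NAME 2, which had 11 such cells. Of 8979 genes tested, 54 (0.601%) were higher and 31 (0.345%) lower. The count was 24, all of them higher, without HFD + L-NAME 1, and 46 without chow 2, 35 higher and 11 lower. DESeq2 called 10 higher and 62 lower, and without the library as a block edgeR called 2. Of 32 called genes that were followed across the alternatives, 20 lost the call without HFD + L-NAME 1, while DESeq2 called 4 and gave no adjusted p for 28.

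Genes of NK and effector programs led those that were higher. Tyrobp stood at 30.1, 39.3, 29.4 and 72 CPM in effector-type members of chow 1, chow 2, HFD + L-NAME 1 and NO2-OA, and at 2.42, 4.29, 1.51 and 7.30 in the other members. No libraries overlapped (3.36 ± 0.31, adjusted p = 3.8e-07). B cells carried Tyrobp UMIs in 8.61 to 26.8% of cells. Fcer1g was higher by 1.80, Zeb2 by 1.28, Anxa2 by 1.31 and Rgs16, a brake on chemokine receptor signals, by 2.5. S1pr5, an exit receptor of effector and NK cells, had 33 UMIs against 6, and Ncr1 had 23 against 1. Of 10 NK markers tested, 6 were higher, with a median of 2.24 against −0.00 over all genes. Whether NK-cell RNA or NK and T cell doublets took part was not tested.

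Dividing-cell genes were also higher, for 4 of 22 tested with a median of 0.67. Stmn1, a microtubule regulator, stood at 45.9 to 75.9 CPM against 12.9 to 27.8 (1.33 ± 0.20), Hmgb2 was higher by 0.61 and Mki67 by 2.47 on 63 UMIs against 33. Among cytotoxic genes 4 of 20 passed, with Ifng higher by 0.93, Serpinb6b, a granzyme inhibitor, by 0.85, Ccl4 by 0.71 and Gzmk by 2.39. Rap1gap2, Dock5, Slc41a2, Emp3 and Actb completed the genes named as higher, at 0.41 to 1.74.

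Of 23 naive and quiescence genes tested, 1 was lower, against 0.345% of all genes tested, with a median of −0.16. Il7r, the IL-7 receptor, stood at 640, 553, 406 and 500 CPM in effector-type members and at 705, 836, 624 and 585 in the others (−0.46, SE 0.09, adjusted p = 0.016). Gpr183, an oxysterol receptor that positions lymphocytes, fell by 0.51, Socs3, an inhibitor of cytokine signals, by 0.54 and Yes1 by 0.55. Bbs9, Rttn, Tcp11l2, Crlf3, Aff3 and Heatr5a lay between −0.60 and −0.35, and the B-cell gene Bank1 at −2.00. Tbx21 (0.18, adjusted p = 0.81) was not called.

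**Figure D4:**
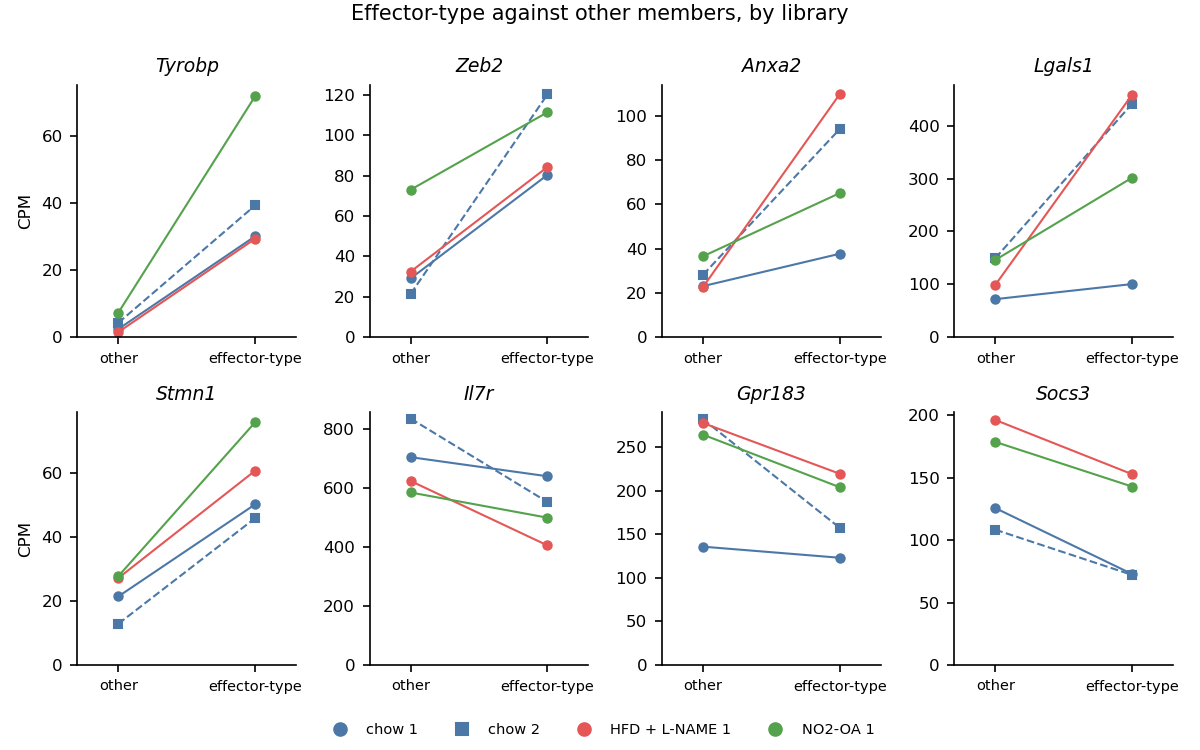
CPM of 8 genes in effector-type and other members, with lines joining the same library, for the 4 libraries with at least 20 cells of each kind. Tyrobp, Zeb2, Anxa2, Lgals1 and Stmn1 are higher and Il7r, Gpr183 and Socs3 lower in effector-type members of each of the 4 libraries.

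T-cell receptor beta variable segments gave a coarse view of diversity. A Trbv UMI was found in 35, 49, 34, 12 and 63 members. Members with exactly 1 segment used 15, 18, 15, 8 and 18 segments. The effective number, the inverse of the chance that a pair of cells share a segment, was 16.0, 19.3, 16.5, 9.17 and 14.9 in members, and 10.9 to 23.4 in naive-type cells of the 4 libraries with more than 1 such cell. The leading segment held at most 17.6% except in HFD + L-NAME 2, where Trbv12-1 was in 4 of 11 cells. At these numbers no segment dominated the members of the other 4 libraries.

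The third comparison asked what the regimen changed in members. No gene of 10697 passed FDR 0.05 in edgeR (0.0%), while 276 (2.58%) had an unadjusted p under 0.05. DESeq2 also called 0, with 86 at an unadjusted p under 0.05. The count depended on single libraries, at 15 without chow 1, 54 without chow 2, 7 without HFD + L-NAME 1 and 14 without HFD + L-NAME 2. In simulated counts of this design, 16 of 94 genes with a log2 change of 1 were called and 69 of 96 with a change of 2. The genes given next are therefore values and not calls.

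Some genes separated the libraries, as did 12.2% of all genes tested upward and 15.7% downward. Fhit, a dinucleoside hydrolase gene, had the smallest p. It stood at 167 and 294 CPM in chow, 69.2 and 92.7 under the regimen and 103 with NO2-OA (−1.51, SE 0.33, adjusted p = 0.21). Gpr171, an inhibitory receptor of T cells, stood at 18.8 and 16.3, then 53.4 and 38.9, with 47.9 CPM in the NO2-OA library (1.48 ± 0.36, adjusted p = 0.40). Serpinb6b stood at 19.1 and 15.3, then 49.1 and 42.6, with 52.8 (1.47 ± 0.36, adjusted p = 0.40). For all 3 genes the NO2-OA library lay with the regimen libraries.

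Further values followed the same layout. Ikzf2, which encodes Helios, was at 96.4 and 59.8 CPM in chow and 123 and 217 under the regimen, with 89.0 in the NO2-OA library, inside the chow range. Ahr, the aryl hydrocarbon receptor, was at 15.0 and 2.87 against 50.7 and 24.1. St8sia1, a sialyltransferase, was at 134 and 70.8 against 50.1 and 35.2 and Ttc28 at 190 and 143 against 73.6 and 92.7. Gpr146 (6.27 and 10.0 against 31.1 and 13), Sh3pxd2a (47.7 and 30.6 against 15.3 and 13) and N6amt1 (19.1 and 32.5 against 8.18 and 11.1) did not overlap either.

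The cytotoxic genes lay mostly above 0. Of 22 tested, 21 had a log2 fold change above 0 and 1 below, against 48.2% and 51.8% of all genes, and the median was 0.42 against −0.02 over all genes. Within replicate number 1 the median was 0.71 and within number 2 it was 0.31. Of the 22, 10 did not overlap between groups upward and none downward, against 12.2% and 15.7% of all genes. Values of some of these were looked up after the results were seen. Gzmb was at 3.13 and 14.3 CPM in chow and 30.5 and 18.5 under the regimen, Gzmk at 0.348 and 13.9 against 29.4 and 29.7, and Ifng at 47.0 and 30.1 against 75.2 and 59.3. Ccl4 stood at 71.4 and 40.6 against 105 and 77.9, and Serpinb9 at 9.40 and 10.0 against 27.3 and 16.7. Gzma overlapped, at 20.2 and 81.3 against 60.0 and 0, as did Prf1, at 46.0 and 30.6 against 49.6 and 26.0. Chow 1, which was low in Ccl5 and Nkg7 as well, was lowest in Gzmb and Gzmk.

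Naive and quiescence genes leaned the other way, with 17 of 24 below 0 and a median of −0.18. Within number 2 that median was −0.01. Ccr7 was at 118 and 194 CPM in chow, 86.7 and 89.0 under the regimen and 66.2 with NO2-OA, and Il7r at 696 and 774 against 564 and 599. Bcl2 was at 1348 and 1251 against 858 and 970. Of the 24, 6 did not overlap downward and 2 upward, against 15.7% and 12.2% of all genes. Memory genes had a median of 0.31, which was 0.47 within number 1 and −0.06 within number 2, so it did not hold in both. Interferon-stimulated genes had a median of 0.01 and lipid and fatty-acid oxidation genes of −0.09, with 9 of 22 above 0.

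Red-cell transcripts moved with the regimen in part. The median over 9 erythroid markers was 3.92, but it was 3.16 within number 1 and 0.57 within number 2 and ranged from 0.70 to 5.2 over the alternatives. In HFD + L-NAME 1, 2 members had haemoglobin at 10% or more of their UMIs. Platelet markers had a median of −0.64 over 10 genes, which was 0.034 without chow 1, and their summed level overlapped, at 437 and 213 CPM in chow and 241 and 165 under the regimen. The part of these in the values above was not tested. With platelet-positive cells left out, the cytotoxic median was 0.49, and without chow 1 it was 0.39.

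**Figure D5:**
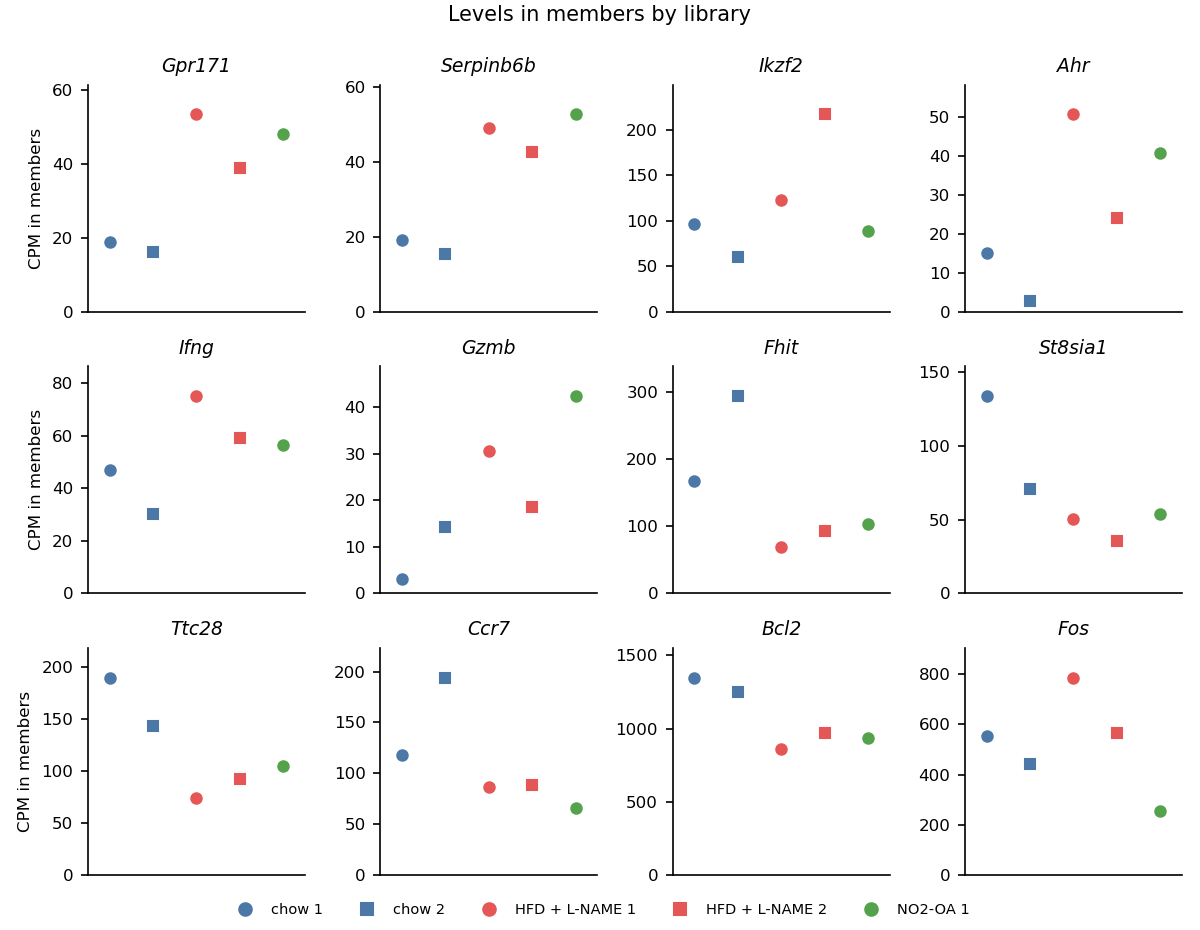
CPM in members of each library for 12 genes, 1 point a library, with circles for replicate number 1 and squares for number 2. Gpr171, Serpinb6b and Ifng are higher in both regimen libraries than in both chow libraries, Fhit and Ccr7 are lower, and Fos is lowest in the NO2-OA library at 257 CPM, with none past FDR 0.05.

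NO2-OA was given in 1 library, so its values have no replicate of their own and the test assumes that it varies like the other groups. In members 2 genes of 10697 were lower (0.0187%) and none higher (0.0%) against the regimen, with 177 genes (1.65%) at an unadjusted p under 0.05. Both are platelet genes, Gng11 at 106 and 53.8 CPM under the regimen and 11.7 with NO2-OA (−2.93, SE 0.48, adjusted p = 0.0021), and Pf4 at 85.6 and 48.2 against 11.1 (−2.75, SE 0.48, adjusted p = 0.0048). Both lost the call with equal numbers of cells and without HFD + L-NAME 1. Clec1b, another platelet gene, was at 26.2 and 18.5 against 2.93 and Zc3h12b at 18.5 and 26.0 against 3.59, without passing.

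No T-cell gene was called. Fos, an immediate-early factor, was at 787 and 565 CPM under the regimen, 554 and 442 in chow and 257 with NO2-OA (−1.5, SE 0.42, adjusted p = 0.51). Of 35 immediate-early and stress genes tested, 4 had a log2 fold change above 0, against 50.1% of all genes, and the median was −0.42 against 0.00 over all genes. The NO2-OA library lay below both regimen libraries for 21 of the 35 and above both for 3, against 28.5% and 31.7% of all genes. Jun, Dusp1 and Nr4a1 had values of −1.02, −0.67 and −0.73, and Junb −0.04. Cytotoxic genes had a median of −0.16 and effector-type memory genes of 0.38. NK markers moved with the latter, with a median of 0.75 and 7 of 10 above both regimen libraries, and their part was not tested. NRF2 is a factor that nitrated fatty acids are known to activate. Of 15 genes tested from a list of NRF2 targets and ferritin genes, which also holds Keap1, 3 had values above 0. Their median was −0.098 and ran from −0.257 to 0.067 over the alternatives, so its direction did not hold.

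The genes highest with NO2-OA, none of them called, were Ebf1 at 52.8 against 15.3 and 11.1 CPM, Cd86 at 46.6 against 12.5 and 13, Txndc16 at 38.5 against 12.5 and 16.7, Top2a at 37.2 against 16.9 and 3.71, and Nckap1 at 65.2 against 22.9 and 35.2. Ebf1 is a B-cell factor, and with predicted doublets left out its log2 fold change turned from 1.81 to −0.84.

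Whether the regimen acted differently on members and on naive-type cells was tested as an interaction over 11388 genes. It called 4 genes higher (0.0351%) and 1 lower (0.00878%). The lower one, Socs3, stood in members at 118 and 100 CPM in chow and 184 and 111 under the regimen. In naive-type cells it stood at 94.8 and 40.8, then 321 and 113 (difference −1.35, SE 0.31, adjusted p = 0.030). The value of 113 rested on 9 UMIs of 11 cells. Socs3 lost the call in DESeq2, without the library block, without the filter on low counts, and when HFD + L-NAME 1, chow 1 or chow 2 was left out. It also lost it without platelet-positive cells, without predicted doublets and with a mitochondrial share under 5%. DESeq2 called 0 genes and without chow 1 edgeR called 1.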

How the data were processed

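Single-cell RNA counts of 5 libraries were used as deposited. The authors' UMI count matrices were made with Cell Ranger 7.1.0, per the file headers, from bcl2fastq reads and the mm39 build, per the submitters' processing notes. The annotation release is not given in the sources used here. Groups come from the sample titles. The members and gene lists were chosen with earlier results of these data known.

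Counts were summed per library over members, naive-type, NK-type and effector-type cells and tested with edgeR 4.0.16 (TMM, filterByExpr, robust quasi-likelihood, Benjamini-Hochberg at 0.05), with DESeq2 1.42.0 as an alternative. Regimen fits used the 5 libraries without a block, and fits between cell types used the library as a block. The fold changes printed are log2 from edgeR and CPM are counts scaled to 1000000 UMIs of the summed cells. Shares were thinned to 2000 UMIs per cell, leaving out 2 shallower members, and intervals are exact binomial (Clopper-Pearson, 95%). Genes with 0 UMIs were bounded at 3 counts over the group. Doublets were kept and predicted ones left out in an alternative (scanpy 1.11.5, Scrublet at 0.8% per 1000 barcodes). Named genes were up to 12 in each direction with the smallest p past 0.05, a mean log2 CPM of at least 4 and the same direction in every library, filled to 5 with values where fewer passed, plus up to 4 of each list. Genes outside this rule were chosen after their values were seen. Scripts were tested on simulated counts. The tested table of members against naive-type cells recovered 82 of 97 genes changed by 1 on the log2 scale. Alternatives changed the normalization, the filters, the cells and the libraries. Some genes that the rule selects are not reported here.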

Additional observations from a re-analysis of the deposited data

Results flagged for a closer look

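For 5 genes the effect of the regimen differed between members and naive-type CD8 cells in the interaction test of edgeR. Differences are on the log2 scale, members minus naive-type. Hbb-bt, a haemoglobin gene, had a difference of 5.08 (SE 0.63, adjusted p = 8.0e-04), at 5.92 and 1.91 CPM in chow members and 468 and 14.8 under the regimen, against 1362, 2.78, 2421 and 12.6 in naive-type cells. In chow 1, 3 naive-type cells and no member had haemoglobin at 1% or more of their UMIs. The neutrophil genes S100a8 (6.26, adjusted p = 0.029) and S100a9 (3.83, adjusted p = 0.030) were at 42.2 and 95.8 CPM in naive-type cells of chow 1, and at most 10.4 and 14.8 CPM in members of any library. The unnamed transcript 1700062C10Rik differed by 5.28 (adjusted p = 8.0e-04) on 18 member UMIs in HFD + L-NAME 1, 0 in HFD + L-NAME 2 and 1 in chow. The regimen libraries thus did not agree in members. It stood at 58.4 to 120 CPM in naive-type cells, where the value of HFD + L-NAME 2 rested on 7 UMIs. Socs3 differed by −1.35 (adjusted p = 0.030). The part of red-cell and neutrophil transcripts in these differences was not tested.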

How the results depend on the processing

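In members, the regimen test called 0 genes. It called 1 with cells of 1% or more haemoglobin left out (chosen after seeing the data), 4 with platelet-positive cells left out, 1 with equal cell numbers, 4 without the filter on low counts, 1 with predicted doublets left out, 15 with the replicate block, and 0 to 54 when a library was left out. For NO2-OA the count of 2 became 7, 4, 7 and 6 with platelet-positive cells left out, equal cells, no filter and doublets left out, 25 with the replicate block, and 6 to 15 when a library was left out. Against naive-type cells the 1999 calls became 1041 without platelet-positive cells, 994 with depth-matched cells and 737 with no replicate block, and 1400 to 2049 when a library was left out. Against NK-type cells the 2708 calls became 2000 to 2793 when a library was left out, and no other alternative moved them by over 1.5 times. The interaction count of 5 became 0 in DESeq2, 1 without platelet-positive cells, 1 without the filter, 1 without doublets and 0 with no replicate block, and 1 to 18 when a library was left out. The effector-type count of 85 became 224 without the filter and 2 with no replicate block, and 24 to 106 when a library was left out. DESeq2 gave 72 there, 10 higher and 62 lower.

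The log2 ratio of member shares reversed to −0.89 over all filtered barcodes, and was 0.00 to 0.52 when a library was left out. The effector-type share reversed to −0.44 when thinned. Ebf1 reversed to −0.84 without predicted doublets. Itga4 against naive-type cells reversed to 0.053 with depth-matched cells. Among regimen values in members, none of them called, Gzma reversed to 0.021 without predicted doublets and ran from −9.80 to 1.02 when a library was left out, and Prf1 reversed to −0.12 with equal cell numbers and ran from −0.56 to 0.47. For NO2-OA, Junb reversed to 0.028 with a mitochondrial share under 5% and ran from −0.31 to 0.23. Of 1227 values of the genes followed against naive-type cells under alternatives, 46 lost the call, and of 615 against NK-type cells 1 did, Gzmk without the NO2-OA library. Of 269 in effector-type members, 82 did. The cause of the changes was not tested.

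Replicate numbers pair libraries in name only. Differences of number 1 minus number 2 correlated at 0.199 between chow and regimen over 2651 genes, from 2 pairs. Depth limits HFD + L-NAME 2 most, with 39 members and 11 naive-type cells.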

Other observations

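Hspa1b, a heat-shock gene, had 1 UMI in members of chow 2 (0.478 CPM), against 579 CPM in chow 1, 223 and 226 under the regimen and 142 with NO2-OA.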
